A study of Mus musculus with 23 samples.

Results

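The genes described here are 10 genes of the type 2 immune pathway measured in the mouse colon: the cytokines Il4, Il5 and Il13, the epithelial and stromal alarmins Il33 and Tslp, the receptor genes Il1rl1, Il4ra and Il13ra2, and the transcription factors Gata3 and Stat6. They were chosen by name, with earlier results of these data known. Each gene was read from the probe set that names it alone and has the highest mean over the 23 arrays, and 9 of the 10 genes had such a probe set, among 18194 genes in all. The platform annotation used here names no probe set for Il1rl1, the gene of the IL-33 receptor ST2, so Il1rl1 was not analysed here.

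Damaged epithelium and stroma release IL-33 and TSLP, which activate T helper 2 cells and group 2 innate lymphoid cells, and these cells, under the control of GATA3, secrete IL-4, IL-5 and IL-13. IL-4 and IL-13 signal through receptors that contain IL-4Rα and activate STAT6, while IL-13Rα2 binds IL-13 with high affinity and is widely described as a decoy receptor. In the gut this pathway is known for mucus production, eosinophil recruitment, alternative activation of macrophages and tissue repair, and IL-13 has a long-standing link to fibrosis in chronic colitis.

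The study used BALB/c mice, wild type or lacking FN14 (gene Tnfrsf12a, the receptor of the cytokine TWEAK), and the labels do not give the knockout allele or the age of the animals. Chronic colitis was induced by rectal TNBS, a hapten that couples to colon proteins, given at 0.2% in a mixture of ethanol and PBS over 6 weeks, with rising volumes (1 to 2 µl for each g the mouse weighed); colons were removed 3 days after dosing ended. Biotin-labelled RNA of whole colon was hybridised to Affymetrix arrays for 5 wild-type samples without TNBS, 6 wild-type samples with TNBS, 5 knockout samples without TNBS and 7 knockout samples with TNBS. The labels do not say whether samples without TNBS received the ethanol vehicle, nor that each sample is a separate mouse, and every p-value therefore reflects sample-to-sample spread, which may be technical.

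All values are log2 expression as the authors deposited them, and a probe set's level is not set against that of another probe set. The lowest value of the series was 2.17, and 2623 genes (14.4%) stood within 0.01 of it on all 23 arrays, so a difference at that floor understates any change. Tnfrsf12a separated the genotypes: the highest knockout value was 4.17 and the lowest wild-type value 5.86. The mean of 9 colon epithelium markers lay between 13.34 and 13.52 on all arrays, as the tissue label says. Because the samples were bulk tissue, fewer cells of a type and less RNA per cell cannot be told apart. Differences are from a limma model over all 4 groups and are given as log2 difference ± SE, with p adjusted by the Benjamini-Hochberg method over all genes; "called" means an adjusted p under 0.05.

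Upstream sequences of Il33, Il13ra2 and Il4ra are shown because these 3 genes carry the clearest TNBS differences given below. They are the 250 bases before the RefSeq transcription start on build GRCm38.p6, 5′ to 3′ on the gene's strand, for Il33 (chr19:29924863-29925112, plus strand), Il13ra2 (chrX:147429193-147429442, minus strand) and Il4ra (chr7:125552021-125552270, plus strand). Capitals mark a STAT6-type match (TTC and GAA with any 4 bases between them) in Il33 and the reverse strand of a GATA-type match (AGATAA, read here as TTATCT) in Il13ra2, and Il4ra held no match.
Il33: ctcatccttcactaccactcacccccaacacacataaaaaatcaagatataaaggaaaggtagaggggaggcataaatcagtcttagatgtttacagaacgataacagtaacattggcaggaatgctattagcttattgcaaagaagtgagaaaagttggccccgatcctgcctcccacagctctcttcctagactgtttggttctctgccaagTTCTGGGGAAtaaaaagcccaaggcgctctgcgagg
Il13ra2: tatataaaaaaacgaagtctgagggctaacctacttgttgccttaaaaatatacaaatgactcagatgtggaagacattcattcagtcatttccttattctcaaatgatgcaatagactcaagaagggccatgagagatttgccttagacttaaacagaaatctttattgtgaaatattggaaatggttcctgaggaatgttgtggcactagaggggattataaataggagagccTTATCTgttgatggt
Il4ra: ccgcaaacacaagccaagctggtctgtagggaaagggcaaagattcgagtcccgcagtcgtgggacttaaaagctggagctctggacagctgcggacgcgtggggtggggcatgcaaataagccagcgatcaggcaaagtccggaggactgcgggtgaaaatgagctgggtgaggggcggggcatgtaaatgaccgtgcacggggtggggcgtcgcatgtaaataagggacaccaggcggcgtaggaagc
The Il33 match lay 36 bases before the start and the Il13ra2 match 15 bases before it, and a second RefSeq start of Il33 held neither motif.

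Promoters were found for 9 of the 10 genes (12 promoters), and windows from 250 bases before to 50 bases after the start were searched on both strands for 4 motifs. The STAT6-type motif was in 2 of the 12 (16.7%, Il33 and Il4) and in 6.95% of all 32851 promoters. The shorter STAT-type TTCNNNGAA was in 1 of 12 (8.33%, Il4) and in 8.30% of all. AGATAA was in 4 of 12 (33.3%, of Il13, Il13ra2 and Il1rl1) and in 11.2% of all, and TGATAA in 2 of 12 (16.7%, Il1rl1 and Il4) and in 9.05% of all. Of 20 known IL-4 and IL-13 target genes, 12 matched with 19 promoters, and the same 4 motifs were in 21.1%, 15.8%, 15.8% and 10.5% of these. These matches are letters in a window, not measured binding sites.

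With TNBS in wild type, 5 of the 9 measured genes were higher than without it and none was lower: Il33, Il4ra, Il13ra2, Tslp and Gata3. Il13ra2 differed most, 4.16-fold, followed by Il33 at 1.96-fold and Il4ra at 1.75-fold. Of all genes, 16.5% were called in this comparison, 10.2% higher. The median log2 difference of the 9 genes was 0.57 and that of all genes 0. The groups did not overlap for 4 of the 9 (Il33, Il4ra, Il13ra2 and Gata3), against 6.56% of all genes that were higher without overlap.

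**Figure D1:**
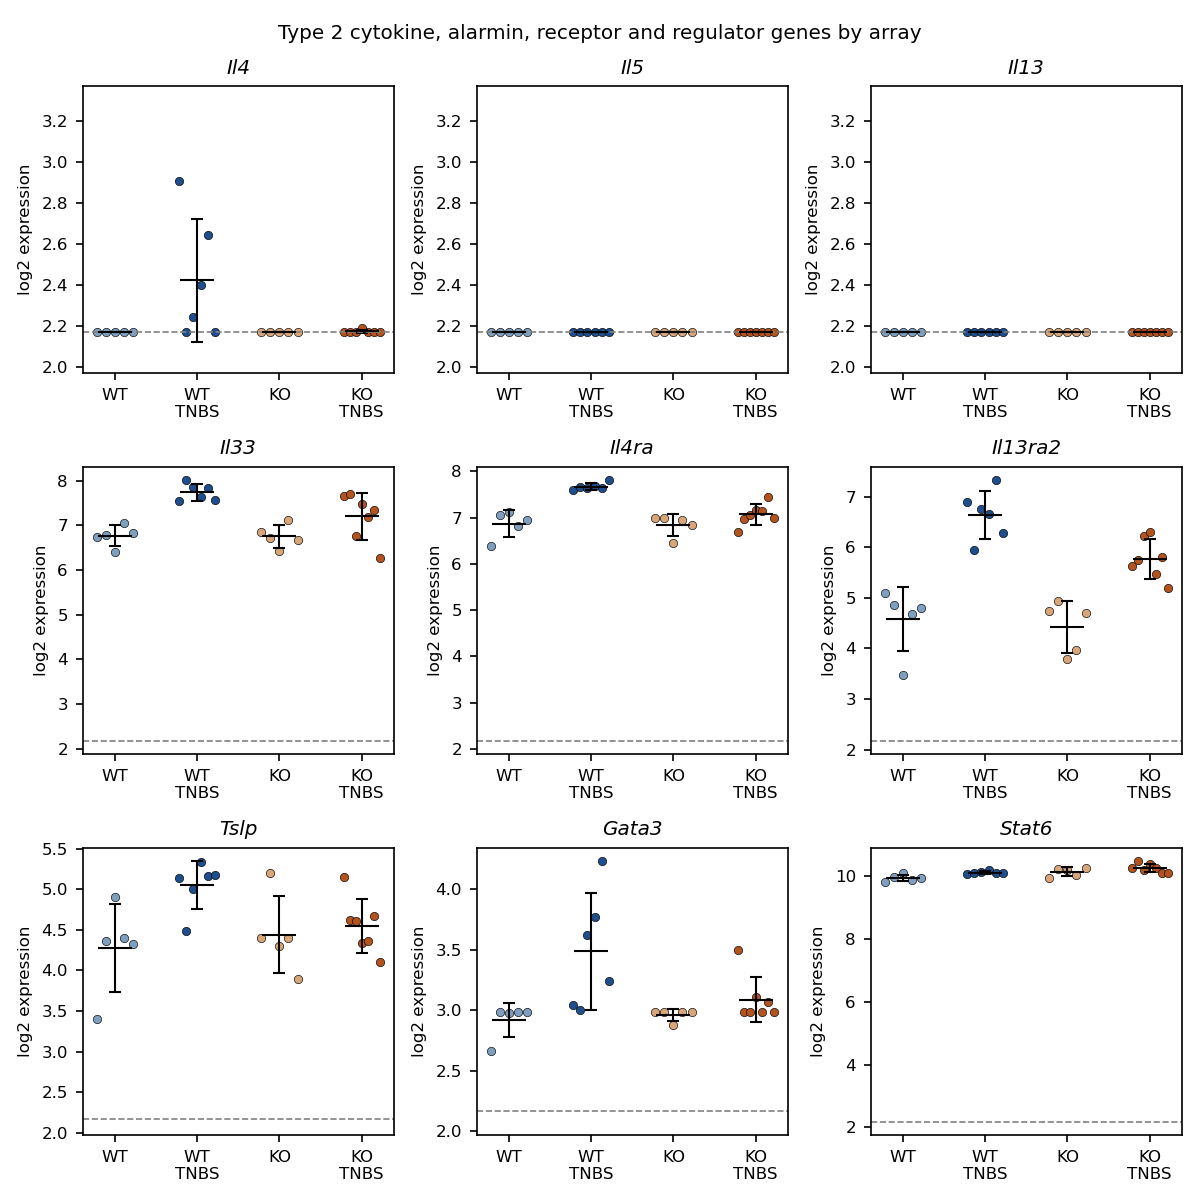
Log2 expression (vertical axes) of the 9 measured genes on each of the 23 arrays, by group (WT, WT with TNBS, KO, KO with TNBS); bars show the mean and SD and the dashed line the lowest value of the series, 2.17. Il5 and Il13 sit on the dashed line in every group, and the 6 wild-type arrays with TNBS lie above all wild-type arrays without TNBS for Il33, Il4ra, Il13ra2 and Gata3.

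The cytokine genes themselves were at or near the floor. Il5, the eosinophil growth factor, and Il13 stood at the lowest value on all 23 arrays, so these arrays give no fold for them. Il4, the defining T helper 2 cytokine, stood there on 18 of 23 arrays. It was above it on 4 wild-type arrays with TNBS, at 2.24, 2.40, 2.64 and 2.91, and on 1 knockout array with TNBS, at 2.19. Every array without TNBS was at the floor. The difference with TNBS in wild type was 0.25 ± 0.092 (adjusted p = 0.0681) and that between genotypes with TNBS was -0.25 ± 0.084 (adjusted p = 0.0662), so neither was called. Leaving out wild-type TNBS replicate 2, 3 or 6 brought both below the threshold, with adjusted p from 0.0261 to 0.0481 and from 0.0239 to 0.0453. At this signal a change in Il4, Il5 or Il13 transcripts is not detectable as anything but a bound.

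Il33, the alarmin released from damaged barrier cells, was 6.40, 6.74, 6.77, 6.83 and 7.06 in wild type without TNBS. With TNBS, wild-type values were 7.54 at the lowest, 7.73 at the median and 8.01 at the highest, so every treated array exceeded every untreated one. The difference was 0.97 ± 0.207 (adjusted p = 0.00281). In the knockout the values were 6.41, 6.67, 6.72, 6.85 and 7.11 without TNBS, and 6.26, 7.34 and 7.70 (lowest, median, highest) with TNBS. The knockout groups overlapped, through replicates 3 and 7 at 6.77 and 6.26, and the difference was 0.45 ± 0.20 (adjusted p = 0.189). Without knockout TNBS replicate 7 it was 0.60 (adjusted p = 0.0206).

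Squamous epithelium markers, which the anal margin or metaplasia can bring into a colon sample, also differed with TNBS. Of 11 measured, 4 were higher with TNBS in wild type and 3 in the knockout, and none was lower. Their mean per array ranged from 3.47 to 4.86 in wild type without TNBS, 5.15 to 7.55 with it, 3.65 to 6.32 in the knockout without TNBS and 4.84 to 8.50 with it. Replicates 3 and 7 of the knockout TNBS group, the lowest for Il33, had squamous means of 5.87 and 4.84. Replicate 5 of that group, at 7.18 for Il33, had 5.85. Its replicates 1, 2, 4 and 6 had squamous means of 8.15, 7.96, 8.50 and 8.11. Their Il33 values, 7.653, 7.703, 7.475 and 7.341, were the highest of that group. In wild type with TNBS, replicate 2 had the highest Il33 value (8.01) and a squamous mean of 5.49. Replicate 6 had the highest squamous mean (7.55) and an Il33 value of 7.555. With TNBS the squamous group mean was 6.55 in wild type and 7.04 in the knockout, and the Il33 mean 7.74 and 7.20. With the squamous mean as a covariate the Il33 difference in wild type was 0.59 (adjusted p = 0.126), and that between genotypes with TNBS was -0.62 (0.0167). The part of these markers in the result was not tested.

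Tslp, the epithelial cytokine that acts on dendritic and type 2 lymphoid cells, was 3.40, 4.32, 4.36, 4.39 and 4.91 in wild type without TNBS and 4.48, 5.15 and 5.34 (lowest, median, highest) with it. The groups overlapped, and the difference of 0.77 ± 0.246 was called with an adjusted p of 0.0364. The call was lost without wild-type replicate 1, 2, 4 or 5 or without wild-type TNBS replicate 1, 3, 4, 5 or 6 (adjusted p from 0.0549 to 0.125), and also in the fit of 2 groups (0.0759) and with quantile normalization (0.14), the replicate block (0.0966), the squamous covariate (0.191) or the skeletal muscle covariate (0.0636). With values below 5 set to 5 the difference was 0.14 (0.0831). In the knockout, Tslp was 3.89, 4.31, 4.39, 4.40 and 5.20 without TNBS and 4.11, 4.61 and 5.16 (lowest, median, highest) with it. Those values overlapped almost fully, with a difference of 0.11 ± 0.238 (adjusted p = 0.959).

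Il4ra, the signalling receptor chain shared by IL-4 and IL-13, was 6.39, 6.81, 6.95, 7.05 and 7.12 in wild type without TNBS. With TNBS, the 6 wild-type arrays lay in a narrow band, 7.59, 7.65 and 7.81 (lowest, median, highest), above all others without TNBS. The difference was 0.80 ± 0.13 (adjusted p = 0.000267). In the knockout it was 6.44, 6.84, 6.95, 6.99 and 6.99 without TNBS and 6.69, 7.05 and 7.45 with TNBS. These overlapped, and the difference of 0.22 ± 0.126 was not called (adjusted p = 0.322). A second probe set of Il4ra was also higher with TNBS in wild type (0.61 ± 0.114, adjusted p = 0.00141 over all probe sets), and the remaining probe set stood at the lowest value on all arrays.

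Il13ra2, the high-affinity IL-13 receptor, was 3.47, 4.68, 4.81, 4.86 and 5.10 in wild type without TNBS and 5.94, 6.70 and 7.33 (lowest, median, highest) with it. In the knockout it was 3.79, 3.97, 4.70, 4.73 and 4.94 without TNBS and 5.19, 5.74 and 6.30 with it. In both genotypes all arrays with TNBS exceeded all arrays without. The difference was 2.06 ± 0.30 in wild type (adjusted p = 9.82e-05) and 1.34 ± 0.29 in the knockout (adjusted p = 0.00737), a 2.53-fold change. With the squamous mean as a covariate the knockout difference was 1.01 (adjusted p = 0.145).

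Il13ra2 was the only member called with TNBS in the knockout, 1 of 9, where 8.55% of all genes were called, 4.08% higher. It was also the only one without overlap there, against 1.82% of all genes higher without overlap. The median log2 difference of the 9 genes was 0.11 and that of all genes 0.

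Gata3, the T helper 2 master transcription factor, was 2.67 on 1 wild-type array without TNBS and 2.98 on the other 4. With TNBS it was 3.00, 3.43 and 4.23 (lowest, median, highest), all above 2.98 by a small margin at the lowest. The value 2.98 recurred within 0.01 on 12 of the 23 arrays, 4 of them knockout arrays with TNBS, and the knockout TNBS values were 2.98, 2.99 and 3.50. The wild-type difference was 0.56 ± 0.165 (adjusted p = 0.0234), and that in the knockout 0.12 ± 0.16 (adjusted p = 0.788). The wild-type call was lost without wild-type replicate 1 (adjusted p = 0.0712) or wild-type TNBS replicate 4 (0.0525) and also in the fit of 2 groups (0.128) and with quantile normalization (0.145), the squamous covariate (0.277) or the skeletal muscle covariate (0.0764), and the difference was 0 once values below a log2 of 5 were set to 5.

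Stat6, the transducer of the IL-4 receptor, lay between 9.82 and 10.49 on all arrays, with means of 9.95 ± 0.104, 10.12 ± 0.045, 10.15 ± 0.134 and 10.26 ± 0.135 (SD) in wild type, wild type with TNBS, knockout and knockout with TNBS. No comparison called it. With TNBS the difference was 0.17 ± 0.066 in wild type (adjusted p = 0.0905). It was 0.20 ± 0.069 between genotypes without TNBS (adjusted p = 0.108). Leaving out wild-type replicate 3 brought the first to an adjusted p of 0.0495, and leaving out knockout replicate 1 brought the second to 0.0447. The first was also called in the fit of 2 groups (0.0372), with the replicate block (0.0464) and with array weights (0.0497). The second was called with array weights (0.0421) and with the mean of the probe sets (0.0362). A second Stat6 probe set lay between 6.38 and 7.08 and was not called either. Its untreated genotype difference was 0.26 ± 0.092 (adjusted p = 0.122 over all probe sets).

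With TNBS, 2 of the 9 genes were lower in the knockout than in wild type and none was higher: Il4ra and Il13ra2. Of all genes, 10.5% were called, 6.72% lower. This comparison shares its wild-type TNBS arrays with the TNBS comparison in wild type. The median log2 difference of the 9 genes was -0.40 and that of all genes 0.

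Il4ra did not overlap between genotypes: its highest knockout value with TNBS was 7.45 and the lowest wild-type value 7.59. The difference was -0.60 ± 0.119 (adjusted p = 0.00296), or 1.52-fold, and it was the only one of the 9 without overlap, against 2.43% of all genes lower without overlap. The second Il4ra probe set, a low signal whose groups overlapped, was lower too (-0.49 ± 0.105, adjusted p = 0.00568 over all probe sets). Il13ra2 overlapped, with a difference of -0.87 ± 0.276 at an adjusted p of 0.0488. That call was lost without wild-type replicate 2, 4 or 5, wild-type TNBS replicate 1, 3, 4, 5 or 6, knockout replicate 1, 4 or 5, or knockout TNBS replicate 1, 2, 5, 6 or 7 (adjusted p from 0.05 to 0.127).

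The other measured genes were not called in that comparison. Il33 differed by -0.54 ± 0.19 (adjusted p = 0.0787), and by -0.62 without knockout TNBS replicate 1 or replicate 2 (0.0499 and 0.048). Tslp differed by -0.50 ± 0.226 (0.186), Gata3 by -0.40 ± 0.152 (0.108) and Stat6 by 0.14 ± 0.061 (0.161). With median centring Stat6 was called higher (0.0462) and Il13ra2 was not called (0.0552). Without wild-type TNBS replicate 2, Gata3 differed by -0.49 (0.0357). At an unadjusted p under 0.05, 7 of the 9 genes passed, among them Stat6, which was higher, and Il4, at the lowest value on 18 of 23 arrays. The share of all genes at that unadjusted threshold is not given here for any comparison, so this count has no background to be read against.

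**Figure D2:**
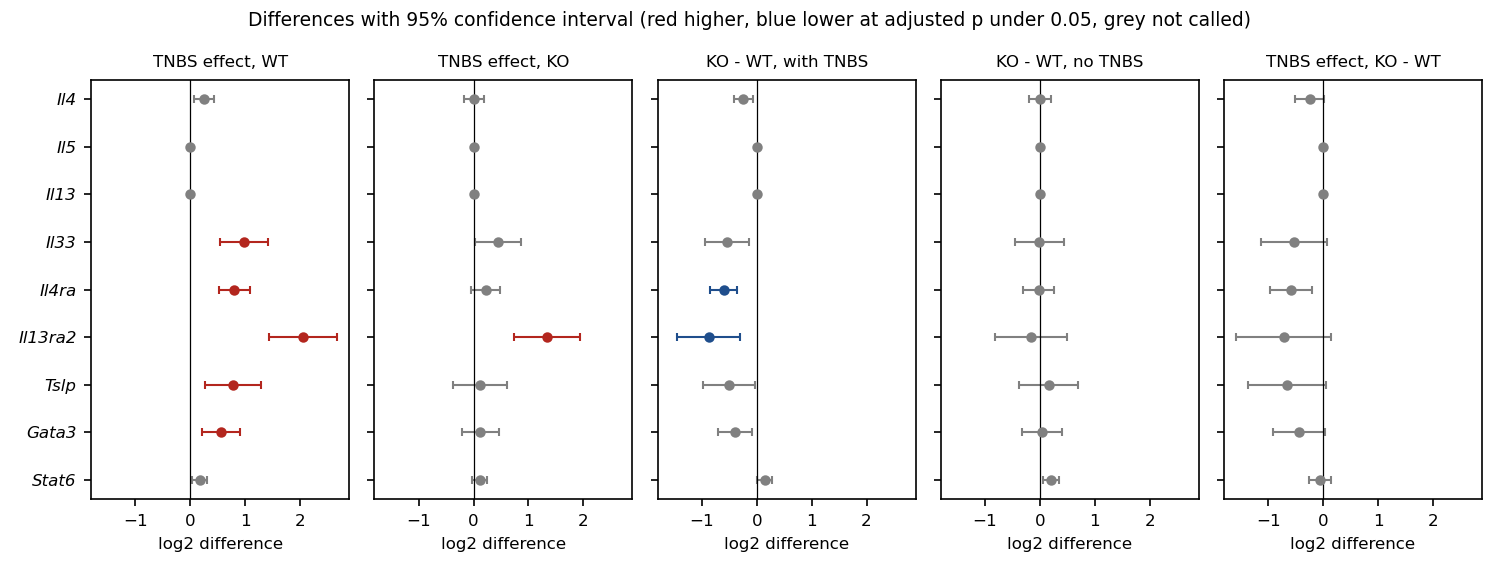
Log2 differences (horizontal axes) of the 9 genes in 5 comparisons, with 95% confidence intervals from limma; red marks higher, blue lower and grey not called at an adjusted p under 0.05. The wild-type TNBS panel holds 5 red points, the knockout TNBS panel 1, and the comparison of genotypes with TNBS 2 blue points, Il4ra and Il13ra2.

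Without TNBS, limma called none of the 9 genes between genotypes, where 4.83% of all genes were called, and 1 (Stat6) had an unadjusted p under 0.05. Whether the TNBS effect depended on genotype was tested as an interaction. It was called for none of the 9, against 2% of all genes, and 1 (Il4ra) had an unadjusted p under 0.05. The interaction was -0.58 ± 0.181 for Il4ra (adjusted p = 0.0993), -0.53 ± 0.288 for Il33 (0.401), -0.72 ± 0.418 for Il13ra2 (0.445), -0.66 ± 0.342 for Tslp (0.366) and -0.44 ± 0.23 for Gata3 (0.372). Without knockout replicate 3 it was -0.68 for Il4ra (0.0456), and for the second Il4ra probe set, a low signal, it was -0.65 ± 0.159 (0.0452 over all probe sets). An effect called in wild type and not in the knockout is therefore not shown to differ between genotypes on the 9 chosen probe sets.

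Receptor partners and other type 2 cytokines were measured for 18 of 20 listed genes, and 5 of them (Il25, Il9, Il9r, Il3 and Ptgdr2) stood at the lowest value on all arrays. Tnfsf4 stood there on 22 of 23 arrays, and Csf2 and Il31ra on 21. With TNBS, 6 were higher in wild type and 4 in the knockout, and none was lower. Between genotypes with TNBS, 5 were lower in the knockout and none higher. For this list and those below, the shares of all genes in these comparisons were 10.2% and 4.08% higher and 6.72% lower. Csf2rb encodes the shared β chain of the IL-3, IL-5 and GM-CSF receptors, and Csf2rb2 a near-identical β chain of the IL-3 receptor only. The array signals of these 2 genes may mix. Csf2rb and Csf2rb2 were higher by 1.91 ± 0.192 and 2.35 ± 0.236 in wild type and by 1.22 ± 0.185 and 1.27 ± 0.228 in the knockout. Both were lower by genotype (-1.32 ± 0.176 and -1.66 ± 0.216). Crlf2, the TSLP receptor subunit, was higher by 0.63 ± 0.122 in wild type (adjusted p = 0.0014) and 0.54 ± 0.118 in the knockout (0.00728). It was lower in the knockout both with TNBS (-0.68 ± 0.112, 0.000743) and without it (-0.59 ± 0.127, 0.0113). Il7r, the other TSLP receptor chain, was higher with TNBS by 1.06 in both genotypes (± 0.318, adjusted p = 0.0263 in wild type; ± 0.307, 0.0368 in the knockout). The wild-type call was lost without wild-type replicate 1, 3 or 4 or wild-type TNBS replicate 4 or 5 (0.0521 to 0.0582), and the knockout call without knockout replicate 3, 4 or 5 or knockout TNBS replicate 1, 3, 4, 5 or 6 (0.0522 to 0.11). Tnfrsf4, the OX40 co-stimulatory receptor, was a low signal that was higher by 0.99 ± 0.202 in wild type and lower by genotype (-0.95 ± 0.186), and both differences were 0 once values below 5 were set to 5.

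Signal transducers and feedback regulators were measured for 20 of 21 genes. Socs1 stood at the lowest value on all arrays and Jak3 on 21 of 23. With TNBS, 8 were higher in wild type and 4 in the knockout, and none was lower; by genotype with TNBS 1 was higher and 4 were lower. Quantile normalization gave 8 higher and 1 lower in wild type, and by genotype 2 higher and 2 lower, while median centring gave 2 higher and 1 lower by genotype. Stat5a, a transducer of IL-2 family and IL-3 family signals, was higher by 0.94 ± 0.105 in wild type (6.03e-06) and lower by -0.96 ± 0.097 by genotype with TNBS (5.94e-06), with an interaction of -0.73 ± 0.146 (0.0146). Jak2, a receptor-associated kinase, was higher by 0.34 ± 0.049 in wild type (7.75e-05) and Maf, a T helper 2 cofactor, by 0.59 ± 0.088 (0.000126). Tyk2, another receptor-associated kinase, was higher in wild type by 0.36 ± 0.066 (0.000847), which was not called when the mean of its probe sets was used (0.101). Socs3, a feedback inhibitor, was higher by 0.89 ± 0.177 in wild type (0.00162) and 1.24 ± 0.171 in the knockout (0.000207). Irf4, a lymphocyte transcription factor, was higher by 0.94 ± 0.245 (0.0116) and 1.14 ± 0.237 (0.00585), and Maf was higher in the knockout by 0.40 ± 0.085 (0.00625). Cish, a feedback inhibitor induced by STAT5, was higher in wild type by 0.66 ± 0.127 (0.00134).

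Bcl6, a repressor that opposes T helper 2 genes, was higher with TNBS in the knockout by 0.67 ± 0.117 (0.00176). It was lower in the knockout without TNBS by -0.49 ± 0.127 (0.0297), and its interaction was 0.86 ± 0.169 (0.0123). The untreated call was lost without wild-type replicate 2 or 5 or knockout replicate 3, 4 or 5 (0.0508 to 0.0883). With TNBS it was higher in the knockout than in wild type by 0.37 ± 0.111 (0.0385), a call lost without wild-type TNBS replicate 1, 3, 4 or 6 or knockout TNBS replicate 1, 2, 4, 5 or 6 (0.0507 to 0.0982). The genotype differences with TNBS of Tyk2 (-0.20 ± 0.06, 0.0377), Maf (-0.27 ± 0.081, 0.0379) and Cish (-0.39 ± 0.117, 0.0383), were called narrowly. They were lost, with adjusted p up to 0.0976, for Tyk2 without wild-type TNBS replicate 1, 4, 5 or 6 or knockout TNBS replicate 1, 2, 5, 6 or 7, for Maf without wild-type TNBS replicate 1, 3, 4 or 5 or knockout TNBS replicate 2, 3, 5 or 7, and for Cish without wild-type TNBS replicate 1, 3 or 6 or knockout TNBS replicate 2, 3, 4 or 5. The list's count of 5 called genes fell to between 1 and 3 in 12 of those single omissions.

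Known IL-4 and IL-13 target genes were measured for 19 of 20, with Il4i1 at the lowest value on all arrays. With TNBS, 15 were higher in wild type and 8 in the knockout, and none was lower; between genotypes with TNBS 12 were lower in the knockout and none higher. With quantile normalization the wild-type split was 16 higher and 1 lower. Their median log2 difference was 1.60, 0.45 and -0.997 in those 3 comparisons, and that of all genes was 0. The knockout count was 5 without knockout replicate 3. Chil3 and Arg1, markers of alternatively activated macrophages, are named after their values were seen. Chil3 stood at the lowest value on all 5 wild-type arrays without TNBS and between 8.24 and 10.23 with TNBS, so its difference of 6.68 is measured against the floor and is only a bound. Arg1 was higher by 5.09 ± 0.707 (5.8e-05). In the knockout, the TNBS differences of Chil3 (3.03) and Arg1 (2.79) were also called. With 1 array left out, that of Chil3 stayed called in 5 of 23 fits and that of Arg1 in 23. The Arg1 call was lost with the squamous covariate (0.44) and in the fit of 2 groups (0.0697). Chil3 was also lower by genotype with TNBS (-3.65), a call lost in the fit of 2 groups (0.0738). Chil3 stood at the lowest value on 11 of the 23 arrays.

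Retnla and Retnlb, resistin-like genes of macrophages and of goblet cells, were higher with TNBS by 2.77 ± 0.287 and 1.79 ± 0.171 in wild type and by 1.26 ± 0.278 and 1.78 ± 0.165 in the knockout. Both were lower by genotype with TNBS (-1.49 ± 0.264 and -0.83 ± 0.157), and Retnlb also without TNBS (-0.83 ± 0.178, 0.0117). With the 3′ minus 5′ signal of Gapdh as a covariate, both calls with TNBS were lost (0.053 and 0.0661). The untreated Retnlb call was lost in the fit of 2 groups (0.103). Ccl11, an eosinophil chemoattractant, was higher with TNBS in wild type by 1.40 ± 0.241 (0.00052) and lower by genotype with TNBS (-1.52 ± 0.221, 0.000257). Clec10a, a lectin of alternatively activated macrophages, was higher by 2.71 ± 0.313 in wild type (8.6e-06) and 1.65 ± 0.303 in the knockout (0.00256). Its genotype difference with TNBS of -0.997 ± 0.288 (0.031) was lost without wild-type TNBS replicate 3, 4 or 5 or knockout TNBS replicate 3, 5 or 7 (0.0546 to 0.0762). Clca1, a goblet cell product, was higher by 0.26 ± 0.04 in wild type (0.000194) and 0.23 ± 0.039 in the knockout (0.00134).

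Ccl24, another eosinophil chemoattractant, Alox15, a lipoxygenase induced by IL-4 and IL-13, and Pdcd1lg2, an immune checkpoint ligand, were low signals. All 3 were higher with TNBS in wild type, by 1.60 ± 0.151, 2.27 ± 0.229 and 2.06 ± 0.288, and lower by genotype with TNBS, by -1.47 ± 0.139, -2.16 ± 0.211 and -1.80 ± 0.265. Their interactions were -1.47 ± 0.21 (0.00181), -2.04 ± 0.319 (0.00335) and -1.79 ± 0.401 (0.0229). Once values below 5 were set to 5, these calls were lost. The target list's 3 called interactions were 0 under that setting, and 5 without knockout TNBS replicate 6.

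**Figure D3:**
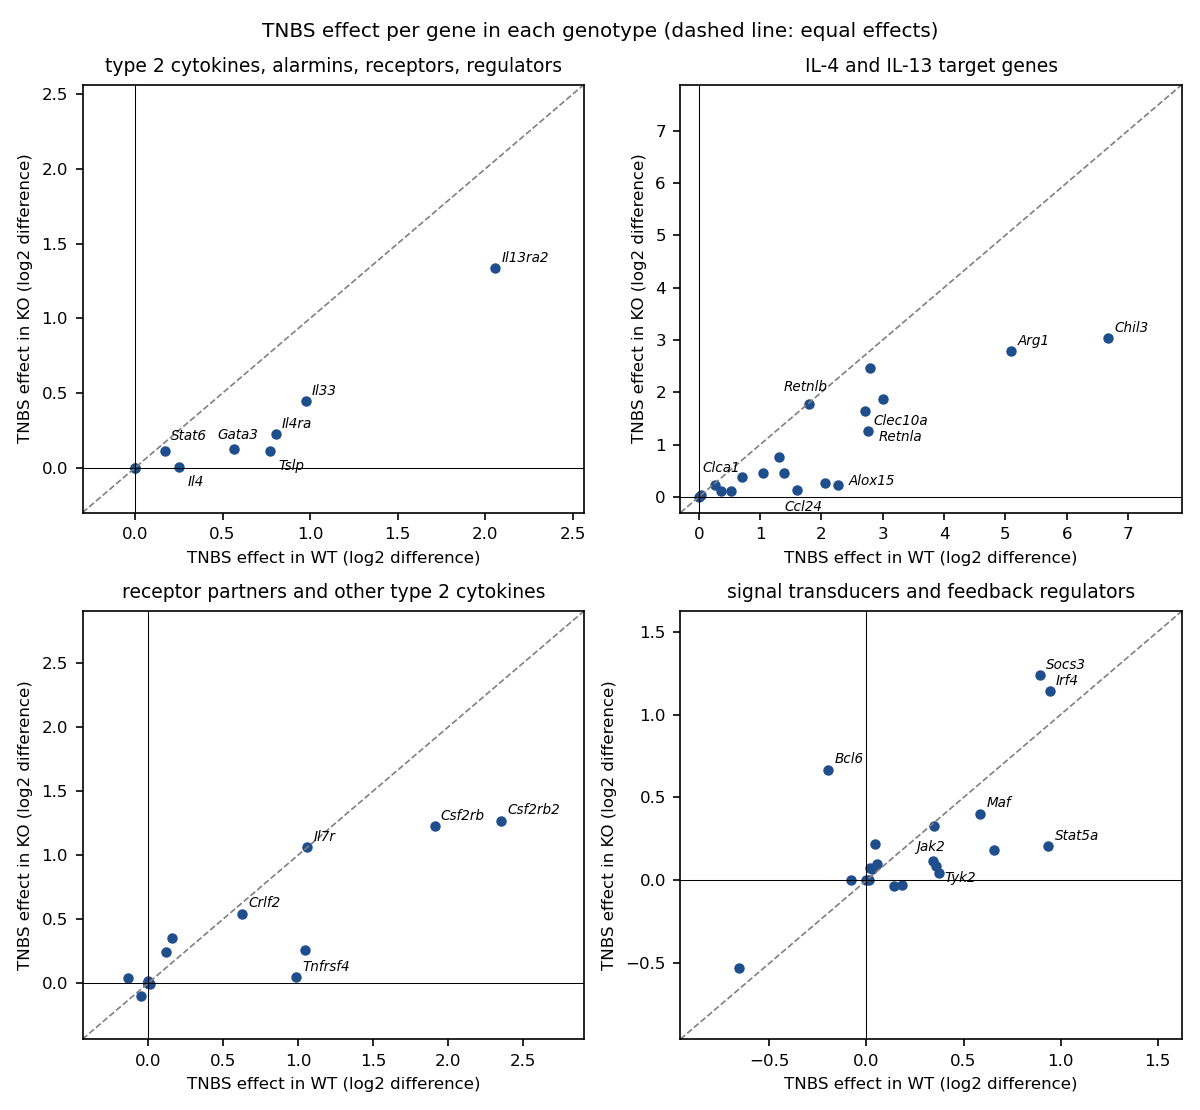
TNBS effect in wild type (horizontal axes) against that in the knockout (vertical axes), as log2 differences, for the 9 genes and 3 pathway lists; each point is 1 gene, the dashed line marks equal effects, and the labelled genes are named in the text. Most points above 0.5 on the horizontal axis lie under the dashed line. Points chosen for a large wild-type effect tend to lie there through noise alone, so this does not test a difference between genotypes.

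Markers of immune cells and of some stromal cells moved with the same comparisons. The mean of 9 T cell markers ranged from 4.59 to 5.0 in wild type without TNBS, 5.70 to 6.14 with it, 4.08 to 4.64 in the knockout without TNBS and 4.68 to 5.70 with it; 8 were higher with TNBS in wild type and 6 in the knockout, and 4 were lower in the knockout with TNBS. All 9 macrophage markers were higher with TNBS in wild type and 7 in the knockout, and 8 were lower by genotype with TNBS. Of 11 mast cell markers, 9 were higher in wild type, 8 were higher and 1 was lower in the knockout, 7 were lower by genotype with TNBS, and 4 had a lower interaction. Of 7 group 2 innate lymphoid cell markers, 6 were higher in wild type and 4 in the knockout, and 3 were lower by genotype with TNBS. Of 6 eosinophil markers, 2 were higher with TNBS in wild type and none in the knockout, 2 were lower by genotype with TNBS and 2 had a lower interaction; their mean ranged from 2.34 to 2.61 in wild type without TNBS and 2.76 to 3.41 with it, and from 2.47 to 2.59 and 2.55 to 2.86 on knockout arrays. The defining eosinophil markers Epx and Ccr3 stood at the lowest value on all arrays of every group. Stromal markers moved in part: of 8 fibroblast markers, 5 were higher in wild type, 4 in the knockout and 3 were lower by genotype with TNBS, and of 7 endothelial markers these counts were 4, 2 and 2. None of 6 smooth muscle markers was called in any comparison. Without TNBS, 1 fibroblast marker was lower in the knockout, and no other marker of these immune and stromal lists was called. The list medians of that log2 difference ran from -0.572 (macrophages) to 0 (eosinophils). Some of these markers are counted in more than 1 list, so the counts are not independent. Il7r, Il17rb, Rora and Arg1 of the group 2 innate lymphoid cell list are also in the pathway lists above, and Thy1 is also a fibroblast marker. Il5ra and Alox15 of the eosinophil list and Mrc1 of the macrophage list are in the pathway lists too. The part of any of these cells in the values of the 9 genes was not tested.

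Skeletal muscle markers, 8 measured, moved with genotype: without TNBS their mean spanned 3.13 to 5.11 on wild-type arrays and 5.78 to 8.17 on knockout arrays, with no overlap, and with TNBS it spanned 3.39 to 7.07 and 5.34 to 8.29. None was called with TNBS, and 3 were higher in the knockout without it. With this mean as a covariate, the untreated genotype differences of Crlf2, Bcl6 and Retnlb were not called (adjusted p = 0.205, 0.246 and 0.119), and Il13ra2 between genotypes with TNBS had an adjusted p of 0.089. With the squamous mean as a covariate, the knockout TNBS differences of Csf2rb2, Crlf2, Il7r, Bcl6, Irf4, Maf, Clec10a and Retnla were not called (adjusted p from 0.058 to 0.467), nor were the wild-type differences of Crlf2, Il7r, Socs3 and Irf4 (0.0586 to 0.419). The part of either tissue in these results was not tested.

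**Figure D4:**
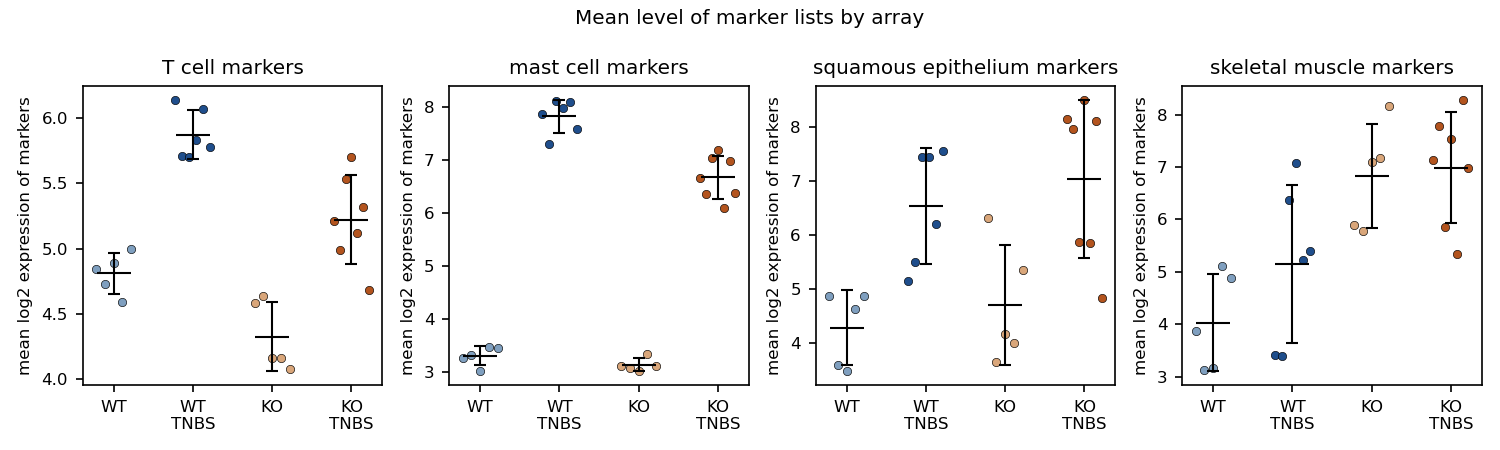
Mean log2 expression of 4 marker lists (vertical axes) on each array, by group, with mean and SD. Mast cell means with TNBS lie above all arrays without it in both genotypes, and the squamous means of the knockout TNBS group spread from 4.84 to 8.50.

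The genes with values most like each member over the 23 arrays were found by Pearson's r among 13673 genes. These arrays share group and quality effects, so r is a description with no test. Il33 was most like Vegfd (0.881), Hfe (0.86) and Maf (0.855), and Tslp like Inf2 (0.844), Ltbp3 (0.817) and Csf1 (0.814). Il4ra was most like Runx1 (0.916), Rasa3 (0.914) and Myo1f (0.909), and Il13ra2 like Ncf1 (0.948), Gm2a (0.94) and Adcy7 (0.94). Gata3 was most like Cpxm1 (0.874), Cd209d (0.839) and Frmd3 (0.824), and Stat6 like Mycbp2 (0.838), Ap3d1 (0.816) and Rgl2 (0.791). After group means were removed, these r values fell to between 0.523 and 0.797, except for Cpxm1 at 0.863.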

How the data were processed

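Total colon RNA of 23 samples was measured on Affymetrix arrays. The authors deposited log2 values for 45101 probe sets; the submitters' processing notes name GCRMA and RMA, and their roles and versions are not given in the sources read. Of the probe sets, 34958 name 1 gene in the platform annotation, 932 several and 9211 none, and only the first kind was used, 1 probe set per gene. No 2 arrays held identical values. The number of arrays limits precision.

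A model with 1 mean per group was fitted with limma 3.58.1 in R 4.3.3 (lmFit, eBayes, 19 residual degrees of freedom), with 5 contrasts and Benjamini-Hochberg adjustment over 18194 genes at a threshold of 0.05. The scripts were tested on simulated data. The labels do not say whether replicate numbers pair the samples, so no block was used in the main fit. Same-numbered deviations correlated over 0.1 in 1 of 5, 2 of 5, 3 of 6 and 2 of 5 pairs in the 4 comparisons of 2 groups. With so few arrays this cannot exclude pairing. Alternatives covered moderation, array weights, normalization, low values, probe sets, the groups fitted, covariates and each array left out. The Gapdh covariate was the log2 signal of the 3′ Gapdh control probe set minus that of the 5′ one.

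The 10 genes and all lists were chosen with earlier results of these data known. All 10 genes are named, and per list and comparison up to 4 called genes with the smallest adjusted p; a gene so named is also given in the other comparisons that called it, and Chil3 and Arg1 were added, both after the values were seen. Cell marker lists are given by counts and mean levels, and the 3 genes with the highest r are named per member. RefSeq promoters of GRCm38.p6 were searched for motifs.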

Additional observations from a re-analysis of the deposited data

Results flagged for a closer look

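In each group of 5 to 7 arrays, a value was singled out where its gap to the nearest array was large against the group's range (Dixon's 95% value). Chance flags about 1 in 20 groups, and 21 of 132 groups were singled out here, 9 of them in the type 2 genes. Many lie near the floor or on a recurring value, where the range is small.

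Among the type 2 genes, the array that stood apart was knockout replicate 3 for Il4ra (6.44), wild-type replicate 3 for Il13ra2 (3.47), and knockout TNBS replicate 4 for Il4 (2.19). For the second Il4ra probe set it was wild-type replicate 2 (2.72), wild-type TNBS replicate 1 (3.32) and knockout TNBS replicate 1 (3.13). For Gata3 it was wild-type replicate 1 (2.67), knockout replicate 3 (2.88) and knockout TNBS replicate 1 (3.50).

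Among the other genes, knockout TNBS arrays stood apart for Crlf2 (replicate 7, 5.47), Il7r (replicate 7, 6.02), Tnfrsf4 (replicate 4, 2.48), Ccl24 (replicate 6, 2.86) and Pdcd1lg2 (replicate 6, 3.07). Wild-type TNBS arrays stood apart for Socs3 (replicate 6, 8.42) and Chil3 (replicate 3, 10.23). Arrays without TNBS stood apart for Tnfrsf4 (wild-type replicate 4, 2.18, and knockout replicate 5, 2.17), Alox15 (knockout replicate 3, 2.60), Retnla (knockout replicate 3, 8.11) and Stat4 (wild-type replicate 1, 3.16).

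The TNBS effect differed between genotypes by the interaction test of limma for 5 pathway genes. It was smaller in the knockout for Alox15 (-2.04, adjusted p = 0.00335), Pdcd1lg2 (-1.79, 0.0229), Ccl24 (-1.47, 0.00181) and Stat5a (-0.73, 0.0146), and larger for Bcl6 (0.86, 0.0123). The calls of Alox15, Pdcd1lg2 and Ccl24, all low signals, were lost with values below 5 set to 5. Those of Pdcd1lg2 and Stat5a were lost with the replicate block (0.0722 and 0.057).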

How the results depend on the processing

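Of 591 member values under alternatives other than leaving out an array, 33 crossed the threshold (19 out of a call, 14 into one); of 1035 with 1 array left out, 40 did (27 and 13), and none reversed. The calls of Il4ra with TNBS in wild type and between genotypes with TNBS, and of Il13ra2 with TNBS in wild type, were kept under all 37 alternatives. Members called with TNBS in wild type numbered 5, but 3 with values below 5 set to 5, with quantile normalization and with the skeletal muscle covariate, 2 with the squamous covariate, and 3 to 6 with 1 array left out. In the knockout the 1 became 2 with the replicate block and 0 with the squamous covariate (1 to 2 with an array left out). Between genotypes with TNBS the 2 became 1 with every probe set tested, quantile normalization, the replicate block and the Gapdh covariate (1 to 4). Without TNBS the 0 became 1 with array weights and with the mean of probe sets (0 to 1), and the interaction's 0 became 1 with the mean of probe sets and with every probe set (0 to 1). Arrays correlated best with their own replicate number in 1 of 5, 1 of 5, 2 of 6 and 1 of 5 pairs, which cannot exclude pairing. The block changed the called genes from 1902 to 1230 between genotypes with TNBS and from 363 to 172 for the interaction. The interactions of Stat5a and Pdcd1lg2 then had adjusted p of 0.057 and 0.0722. The squamous covariate moved called genes from 2998 to 1131 in wild type and from 1556 to 485 in the knockout, where fitting 2 groups gave 856, the Gapdh covariate 813 and leaving out knockout replicate 3 1014. The Gapdh covariate moved 1902 to 738. With it, Il13ra2, Tnfrsf4, Maf, Tyk2, Bcl6, Cish, Retnla, Retnlb, Clec10a and Chil3 were not called between genotypes with TNBS (0.053 to 0.502). Nor were Crlf2, Il7r, Chil3 and Arg1 with TNBS in the knockout (0.0532 to 0.132), or the interaction of Pdcd1lg2 (0.0715). Il4 with TNBS in wild type (0.0399) and Arg1 between genotypes with TNBS (0.0187) became called. Without TNBS, 879 became 288 with 2 groups, 83 with the skeletal muscle covariate, 458 without wild-type replicate 1 and 484 without knockout replicate 4; the interaction's 363 became 238 and 213 without the same arrays. The share of called genes that were higher was 62.0% in wild type but 38.3% with quantile normalization and 40.5% with centring; it was 35.7%, 49.9% and 59.7% between genotypes with TNBS, 60.4%, 50% and 59.6% without, and 31.1%, 53.6% and 52.9% for the interaction. The squamous covariate left 2 target genes, 1 receptor partner and 1 transducer called with TNBS in the knockout. The causes were not tested. Low signal limits Il4, Il5, Il13, Gata3 and the second Il4ra probe set.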

Other observations

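Th1 and Th17 cytokines and regulators, the arms usually set against type 2 responses, were measured for 9 of 14 listed genes, and Il12b, Il23a and Il21 stood at the lowest value on all arrays. Il12a and Il17a stood there on 22 of 23 arrays and Ifng on 18, so the cytokine genes of this list could hardly be read. With TNBS, 2 were higher in wild type and 1 in the knockout, and between genotypes with TNBS 1 was lower in the knockout. Of all genes, 10.2% and 4.08% were higher and 6.72% lower in these comparisons. Stat4, the transducer of IL-12, was 3.43 ± 0.156 (SD, n = 5) in wild type and 4.61 ± 0.351 (n = 6) with TNBS, and 3.26 ± 0.361 (n = 5) and 4.14 ± 0.284 (n = 7) in the knockout. It was higher with TNBS by 1.18 ± 0.18 in wild type (adjusted p = 0.000152, limma) and 0.88 ± 0.174 in the knockout (0.00414), and both calls were lost once values below 5 were set to 5; the knockout call was also lost with the squamous covariate (0.0715). Stat3, the transducer of IL-6 and IL-23, was higher with TNBS in wild type by 0.61 ± 0.116 (0.00106) and lower by genotype with TNBS (-0.97 ± 0.106, 1.5e-05), with group means of 8.72, 9.33, 8.35 and 8.36 in wild type, wild type with TNBS, knockout and knockout with TNBS.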
